A study of Homo sapiens with 4 samples.

Results

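GATA2 ChIP-seq peaks were examined at the 8 human genes that encode the NF-E2 subunit NFE2, its relatives NFE2L1 and NFE2L2, the small MAF proteins MAFF, MAFG and MAFK, and the repressors BACH1 and BACH2. Members were the intervals of the asynchronous and of the mitotic GATA2 peak list that overlapped the GENCODE gene body of 1 of these genes extended by 50 kb on each side on hg38. These windows held 52 of the 31777 asynchronous peaks and 3 of the 1648 mitotic peaks. The study mapped endogenous GATA2 in K562, an established human chronic myeloid leukaemia cell line with erythroid and megakaryocytic features, to ask which sites keep GATA2 during mitosis. Asynchronous K562 cells were left unsorted, whereas the mitotic cells were arrested with the microtubule poison nocodazole, stained for the mitotic phosphoepitope MPM-2, sorted as MPM-2+ in several rounds and pooled. Both were fixed with 2 mM DSG for 50 min and then with 1% formaldehyde for 15 min, and the sorted cells held fewer than 10% asynchronous cells. Each condition had 1 GATA2 library, so no difference between conditions could be tested against replicate error, and the input libraries were not analysed here. K562 is a single leukaemic line, and its label could not be checked against expression markers, since the lists hold only peak positions.

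Proteins of this family are basic leucine zipper factors that bind DNA as pairs. NFE2, NFE2L1 and NFE2L2 carry activation domains and pair with a small MAF protein, and NFE2 with a small MAF forms NF-E2, an activator of globin and platelet genes in erythroid cells and megakaryocytes. BACH1 and BACH2 pair with the same small MAFs and repress many of the same sites, and haem binding releases BACH1 from DNA. GATA2 is a zinc finger factor of blood stem and progenitor cells that binds GATA sequences, and a site occupied in both asynchronous and mitotic cells is called bookmarked. Here an asynchronous peak was counted as bookmarked when it shared at least 1 base with a mitotic peak.

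The stretches below are shown because they carry the mitotic peaks of the 3 genes that had one. Each is the part of a mitotic peak with most GATA strings, taken from hg38 and written 5′ to 3′ on the strand of the gene, with GATA strings in capitals. A GATA string here is GATAA or GATAG with an A or a T before it, on either strand, and on the opposite strand it reads as TTATC or CTATC with a T or an A after it. The NFE2 stretch is chr12:54295783-54296082 on the minus strand, the BACH1 stretch is chr21:29641986-29642285 on the plus strand and the BACH2 stretch is chr6:90044944-90045243 on the minus strand.
NFE2: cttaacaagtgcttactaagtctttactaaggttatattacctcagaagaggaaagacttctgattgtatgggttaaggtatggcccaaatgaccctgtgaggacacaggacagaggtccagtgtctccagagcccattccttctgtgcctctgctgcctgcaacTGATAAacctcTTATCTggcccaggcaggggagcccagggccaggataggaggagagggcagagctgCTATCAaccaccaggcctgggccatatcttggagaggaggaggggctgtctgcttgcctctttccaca
BACH1: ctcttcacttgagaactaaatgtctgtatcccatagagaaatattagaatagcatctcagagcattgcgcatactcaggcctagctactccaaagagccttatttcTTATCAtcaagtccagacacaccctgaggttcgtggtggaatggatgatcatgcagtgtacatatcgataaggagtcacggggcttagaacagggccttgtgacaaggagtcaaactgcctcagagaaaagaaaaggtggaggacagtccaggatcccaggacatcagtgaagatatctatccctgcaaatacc
BACH2: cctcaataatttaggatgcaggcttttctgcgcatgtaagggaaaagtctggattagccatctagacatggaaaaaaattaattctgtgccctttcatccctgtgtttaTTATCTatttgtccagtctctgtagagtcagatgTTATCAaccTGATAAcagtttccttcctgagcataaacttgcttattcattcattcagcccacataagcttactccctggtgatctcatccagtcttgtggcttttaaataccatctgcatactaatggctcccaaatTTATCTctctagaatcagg

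The NFE2 stretch held 3 GATA strings, the BACH1 stretch 1 and the BACH2 stretch 4. In the NFE2 stretch a TGATAA was followed 5 bases later by an inverted AGATAA, and an inverted TGATAG lay 50 bases further on. In the BACH2 stretch an inverted TGATAA and a forward TGATAA were 3 bases apart. The single string of BACH1 and the first string of BACH2 also belonged to a GATA and E-box composite, defined as CTG and GATAA with 8 bases between them, an arrangement known from sites bound jointly by GATA factors and TAL1. The composite began at position 107 of the BACH1 stretch and at position 110 of the BACH2 stretch, in both cases on the opposite strand, and the NFE2 stretch held none. A match describes the reference letters and is not by itself a bound site.

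4 further stretches are shown for asynchronous peaks without a mitotic peak, so that they can be set beside the 3 above. They are part of the widest NFE2 peak (chr12:54304708-54305007, minus strand), part of the NFE2L2 peak nearest to a transcription start site (TSS; chr2:177264913-177265212, minus strand), the only NFE2L1 peak (chr17:48051947-48052193, plus strand) and the asynchronous-only BACH2 peak with most GATA strings (chr6:90080309-90080571, minus strand).
NFE2 asynchronous only: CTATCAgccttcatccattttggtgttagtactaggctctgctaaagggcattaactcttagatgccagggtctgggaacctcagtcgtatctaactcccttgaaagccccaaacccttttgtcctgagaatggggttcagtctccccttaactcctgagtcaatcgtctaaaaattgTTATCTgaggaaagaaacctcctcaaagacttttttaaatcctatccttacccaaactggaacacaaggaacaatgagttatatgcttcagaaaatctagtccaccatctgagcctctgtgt
NFE2L2 asynchronous only: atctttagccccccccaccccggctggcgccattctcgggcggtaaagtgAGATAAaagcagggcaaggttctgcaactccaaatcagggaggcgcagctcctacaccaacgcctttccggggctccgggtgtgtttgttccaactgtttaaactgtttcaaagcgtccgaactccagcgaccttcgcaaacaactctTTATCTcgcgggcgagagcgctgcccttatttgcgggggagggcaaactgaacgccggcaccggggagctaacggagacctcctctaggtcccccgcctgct
NFE2L1 asynchronous only: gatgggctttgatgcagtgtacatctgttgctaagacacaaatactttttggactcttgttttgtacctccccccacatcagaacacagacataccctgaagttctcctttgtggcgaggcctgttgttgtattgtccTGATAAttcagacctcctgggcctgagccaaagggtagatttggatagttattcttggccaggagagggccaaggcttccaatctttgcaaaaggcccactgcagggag
BACH2 asynchronous only: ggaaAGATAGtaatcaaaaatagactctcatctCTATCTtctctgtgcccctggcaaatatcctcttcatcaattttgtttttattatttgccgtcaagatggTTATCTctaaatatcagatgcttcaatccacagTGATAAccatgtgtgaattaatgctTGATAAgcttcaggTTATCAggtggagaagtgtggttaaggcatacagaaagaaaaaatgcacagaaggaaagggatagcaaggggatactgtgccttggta

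GATA strings were thus present in peaks found only in asynchronous cells as well. The BACH2 peak of this kind was chosen for having most strings and held 6 in 263 bp. Setting it beside the 3 mitotic stretches is therefore not a like comparison. The bookmarked asynchronous peak of BACH2, which is wider than its mitotic peak, also held 6. The NFE2L2 stretch held 2 and the NFE2L1 peak 1. The stretch of the widest NFE2 peak held 2 of the 4 GATA strings of that peak.

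GATA2 peaks were present near all 8 genes in asynchronous cells but near 3 of them in mitotic cells. Of the 20033 protein-coding gene windows built by the same rule, 76.0% held an asynchronous peak and 11.7% a mitotic peak. The mitotic peaks were at NFE2, BACH1 and BACH2, with 1 each, and NFE2L1, NFE2L2, MAFF, MAFG and MAFK had none. Of the 52 asynchronous peaks 3 were bookmarked, which is 5.77% (95% exact binomial interval 1.21 to 15.9%), beside a background of 5.04% of all asynchronous peaks. The bookmarked share of these windows was therefore near that of the whole list. Intervals cover counting error over peaks only. The mitotic list is far shorter than the asynchronous one, and the depth of the libraries is unknown from the lists, so a gene without a mitotic peak is a gene at which none was called. Occupancy of fewer cells and weaker occupancy per cell cannot be told apart in pooled cells. Whether the remaining asynchronous cells contributed to the mitotic peaks was not tested.

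The peaks were spread unevenly over the family. The asynchronous list held 14 peaks at NFE2, 9 at BACH1, 16 at BACH2, 6 at NFE2L2, 2 at each small MAF gene and 1 at NFE2L1. NFE2, BACH1 and BACH2, the 3 genes with a mitotic peak, held 39 of the 52 asynchronous peaks, or 75% (61.1 to 86.0%). Each mitotic peak lies inside an asynchronous one, so this grouping favours genes with many asynchronous peaks. The other 5 genes held 13, of which the small MAF genes held 6. The windows differ in length from 108.905 kb at NFE2 to 536.681 kb at BACH1, and long windows have more room for peaks. Per 100 kb of window NFE2 had 12.9 peaks, BACH2 3.40, NFE2L2 2.19, MAFG 1.83, MAFK 1.78, MAFF 1.73, BACH1 1.68 and NFE2L1 0.883. Genes of low count differ by single peaks, and MAFF, MAFG and MAFK, with equal counts, are ordered by window length alone. The median coding window held 2 peaks (quartiles 1 and 4) and 1.41 per 100 kb (0.301 and 2.77), and 7 of the 8 windows were above this median density. MAFF is among the 7 only through a peak that straddled its window edge.

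**Figure D1:**
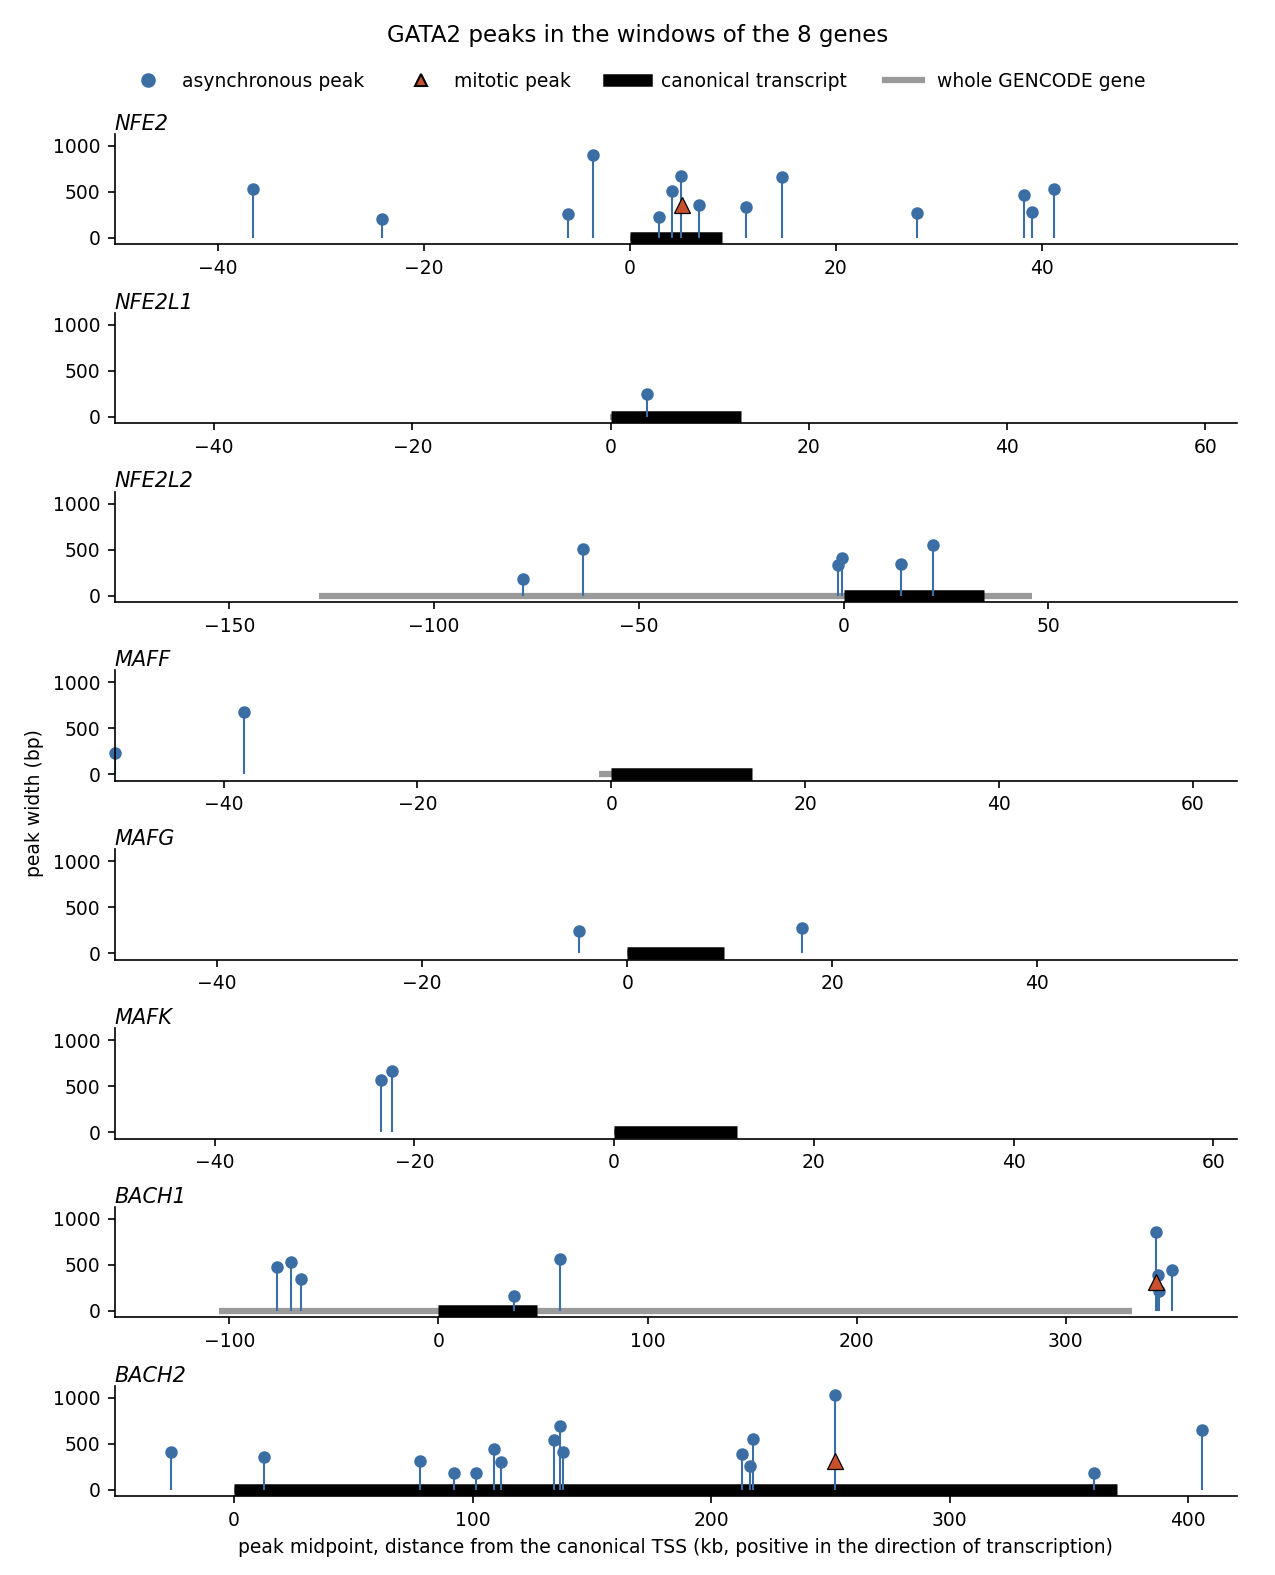
Position of GATA2 peaks in the window of each gene, as distance of the peak midpoint from the canonical TSS (kb, x axis, scaled per gene) against peak width (bp, y axis), with asynchronous peaks as blue points, mitotic peaks as red triangles, the canonical transcript in black and the whole GENCODE gene in grey. The 3 mitotic peaks lie at NFE2, downstream of BACH1 and within BACH2, and the small MAF genes have peaks only outside the gene.

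**Figure D2:**
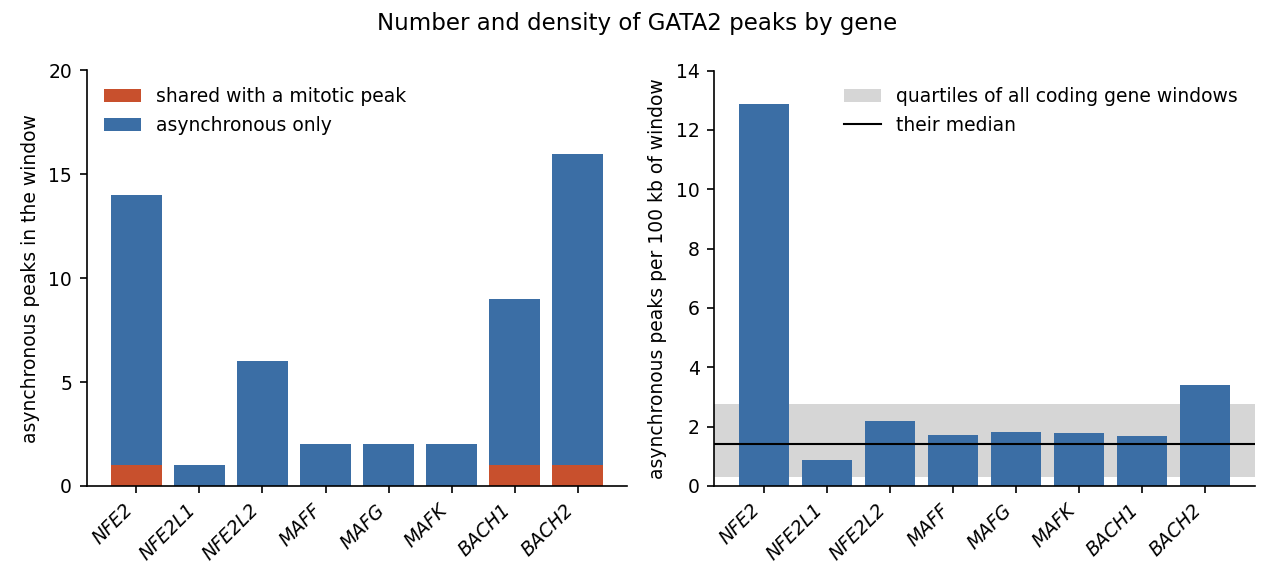
Asynchronous peaks per gene window, split into those shared with a mitotic peak (red) and asynchronous only (blue, left), and the same peaks per 100 kb of window (right) with the median (line) and quartiles (band) of all 20033 coding gene windows. BACH2 has the highest count, 16, and NFE2 the highest density, 12.9 per 100 kb.

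The peaks lay both inside and around the genes. Within gene bodies 30 of the 52 peaks were found (57.7%, 43.2 to 71.3%), and 5 of the 8 genes had a peak in the body, beside 36.8% of coding genes. NFE2, NFE2L1, NFE2L2, BACH1 and BACH2 were the 5, and none of the small MAF genes was among them. The bodies of BACH1, BACH2 and NFE2L2 span 436.681, 370.316 and 174.09 kb, and long bodies have more room for a peak. By position 22 peaks fell in introns of a canonical transcript, 8 in parts of the gene outside the canonical transcript, 12 downstream and 10 upstream of the gene. For 34 of the 52 peaks (65.4%, 50.9 to 78.0%) the nearest TSS of a coding gene was that of the family gene, and for 18 it was that of a neighbour. With every annotated TSS of a member counted, a peak within 1 kb of an own TSS was present at 3 of the 8 genes, beside 16.5% of coding genes. These were NFE2 with 3 such peaks, NFE2L2 with 1 and BACH2 with 1. A further 5 peaks lay within 1 kb of a TSS of a neighbouring coding gene, so 10 of 52 were at a coding promoter (19.2%, 9.63 to 32.5%, beside 11.5% of all asynchronous peaks). Genes with many transcripts have more starts for a peak to be near, and NFE2, NFE2L2 and BACH2 have 5, 65 and 13 transcripts. With the canonical TSS only, the peaks near an own TSS fell from 5 to 1, that of NFE2L2.

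NFE2 (ENSG00000123405, chr12:54292111-54301015, minus strand), the subunit that gives NF-E2 its lineage specificity, had the densest window of the 8. Its 14 asynchronous peaks are 12.9 per 100 kb, a density that 6 of the 20033 coding windows reach, NFE2 included, which is 0.0300%. The gene body held 4 of the peaks within 4201 bp, with widths of 361, 677, 504 and 229 bp in the order of the chromosome. The peak of 361 bp lay in intron 2 and the other 3 in intron 1 of the canonical transcript. All 4 had at least 1 GATA string, beside 93.0% of all asynchronous peaks.

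The bookmarked peak of NFE2 was the widest of these 4. The asynchronous peak covered chr12:54295703-54296379 (677 bp) and the mitotic peak chr12:54295753-54296105 (353 bp), which lay wholly inside it and covered 52.1% of it. Both spanned an internal NFE2 TSS at position 54295760, within intron 1 of the canonical transcript. The 3 GATA strings printed above began at positions -157, -146 and -90 relative to this TSS, so all were upstream of it. An unnamed gene, ENSG00000258344, also overlaps the whole of the gene body, and peak positions do not assign a peak to either gene.

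The other 10 asynchronous peaks of the NFE2 window were nearest to a neighbour. The nearest coding TSS was that of CBX5, which encodes a heterochromatin protein, for 4 of them, that of HNRNPA1, which encodes an RNA-binding protein, for 2, and that of COPZ1, which encodes a coatomer subunit, for 4. The widest peak of the window (chr12:54304131-54305028, 898 bp) was 3116 bp upstream of the canonical NFE2 TSS and 2911 bp downstream of a TSS of COPZ1, within that gene. It held 4 GATA strings, an AP-1 core and a composite, and it was absent from the mitotic list. The windows of CBX5, HNRNPA1 and COPZ1 themselves held 15, 13 and 16 asynchronous peaks and each the same mitotic peak, so the density is shared by the neighbourhood.

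NFE2L1 and NFE2L2 encode stress-responsive activators, NFE2L1 for proteasome genes and NFE2L2, or NRF2, for antioxidant genes. NFE2L1 (ENSG00000082641, chr17:48048329-48061545, plus strand) had a single asynchronous peak of 247 bp in intron 2, 2135 bp upstream of an internal TSS. NFE2L2 (ENSG00000116044, chr2:177218667-177392756, minus strand) had 6, with widths of 551, 348, 411, 332, 506 and 185 bp in chromosome order. All 7 peaks of the pair were in gene bodies and were nearest to a TSS of their own gene. All 7 also held a GATA string and were absent from the mitotic list. In the whole asynchronous list 93.0% of peaks held a GATA string and 5.04% were bookmarked, so both are usual.

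The NFE2L2 peak of 411 bp (chr2:177264858-177265268) ended 71 bp upstream of an NFE2L2 TSS and was the only peak of the 8 genes within 1 kb of a canonical TSS. Its GC content was 62.3%, beside a median of 44.1% over all asynchronous peaks. The gene body of NFE2L2 in GENCODE spans 174.09 kb because of long transcripts, and the canonical transcript spans 34.42 kb and held 2 of the 6 peaks. The widest, of 551 bp, was in intron 1 with 2 GATA strings and an AP-1 core.

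The small MAF genes encode partners without an activation domain, which every other protein of the family needs in order to bind DNA. Their 6 asynchronous peaks all lay outside the genes, and each was nearest to a TSS of another coding gene. MAFF (ENSG00000185022, chr22:38200767-38216507, plus strand) had peaks of 228 and 673 bp, 49889 and 36369 bp upstream of its first TSS. The wider lay 54 bp upstream of a TSS of PLA2G6, which encodes a phospholipase, and held 5 GATA strings and a composite. The narrower straddled a window edge, with 112 of its 228 bp inside, and the nearest peak left out by the window rule was 10 bp outside the NFE2L2 window (690 bp wide, nearest to HNRNPA3, not bookmarked).

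MAFG (ENSG00000197063, chr17:81918270-81927735, minus strand) had peaks of 277 and 246 bp. The first was 306 bp from a TSS of PCYT2, a phospholipid synthesis gene, and the second, without a GATA string, was 4580 bp upstream of MAFG and 4215 bp from a TSS of PYCR1, a proline synthesis gene. MAFK (ENSG00000198517, chr7:1530702-1543043, plus strand) had peaks of 567 and 667 bp that were 529 bp apart. Both lay upstream, 23063 and 21867 bp from the MAFK TSS, and were nearer to INTS1, which encodes an Integrator subunit. The first held no GATA string and the second 1. None of the 6 was at a promoter of its MAF gene.

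BACH1 (ENSG00000156273, chr21:29194071-29630751, plus strand), the haem-sensitive repressor of haem and iron genes, had 9 asynchronous peaks with widths from 165 to 862 bp and a median of 443 bp. The gene body held 5 of them, but its 436.681 kb include long transcripts, and the canonical transcript of 47.227 kb held 1, the narrowest, in intron 4. A group of 3 peaks lay upstream of the canonical TSS, at -77213, -70186 and -65814 bp. The remaining 4 formed a cluster of 8295 bp downstream of the gene, with widths of 862, 387, 217 and 443 bp.

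The bookmarked peak of BACH1 belonged to the downstream cluster. The asynchronous peak covered chr21:29641558-29642419 (862 bp) and the mitotic peak chr21:29641980-29642291 (312 bp), 36.2% of it and wholly inside it. The asynchronous peak began 10806 bp beyond the end of the gene body and 295409 bp beyond the end of the canonical transcript. It lay within GRIK1, a glutamate receptor gene on the opposite strand that spans the whole cluster. The nearest coding-gene TSS was that of a distal BACH1 transcript, 45518 bp from the asynchronous peak. The site enters the BACH1 window only through transcripts that reach beyond the canonical one, and with windows built on canonical transcripts BACH1 had no mitotic peak.

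BACH2 (ENSG00000112182, chr6:89926528-90296843, minus strand), a repressor known from B and T cell differentiation, had 16 asynchronous peaks, a number that 136 of the 20033 coding windows reach (0.679%). Per length its place was lower, since its window spans 470.316 kb and 17.5% of coding windows are as dense. The introns of BACH2 held 14 of the peaks, with 1 in intron 1, 1 in intron 3, 7 in intron 4, 4 in intron 5 and 1 in intron 8. All 16 held a GATA string, 40 in total, beside 93.0% of all asynchronous peaks with at least 1. A peak of 311 bp with an AP-1 core lay 358 bp upstream of an internal TSS of BACH2. The other 2 peaks lay outside the gene, of 649 bp near GJA10 downstream and of 411 bp 26294 bp upstream of the first TSS.

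The bookmarked peak of BACH2 was the widest of all 52. The asynchronous peak covered chr6:90044485-90045514 (1030 bp) in intron 5 and held 6 GATA strings. The mitotic peak covered chr6:90044937-90045250 (314 bp), 30.5% of the asynchronous peak, and held 4 of them. It was 17713 bp from the nearest BACH2 TSS. The other 3 asynchronous peaks of intron 5, of 550, 263 and 394 bp, were not bookmarked.

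The 3 bookmarked peaks were among the wider ones. The 52 peaks ranged from 165 to 1030 bp, with their median at 401 bp and their quartiles at 264.5 and 541 bp, beside 378 bp (267 and 518 bp) for all asynchronous peaks. The bookmarked peaks of BACH2, BACH1 and NFE2 ranked 1, 3 and 5 by width among the 52, and the 49 asynchronous-only peaks had a median of 387 bp. The list as a whole showed the same order, with a median of 674 bp for its bookmarked peaks. At or above 518 bp, the upper quartile of the list, 3 of 17 peaks were bookmarked (17.6%, 3.80 to 43.4%), beside 16.2% of all asynchronous peaks of that width. Below 518 bp 0 of 35 were. In the whole list 1286 of the 1600 bookmarked peaks were at least 518 bp wide, as were 7954 of all 31777 asynchronous peaks. Bookmarking below that width was thus uncommon there too. Peak height is not in the lists, and the part of width or height in the result was not tested.

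**Figure D3:**
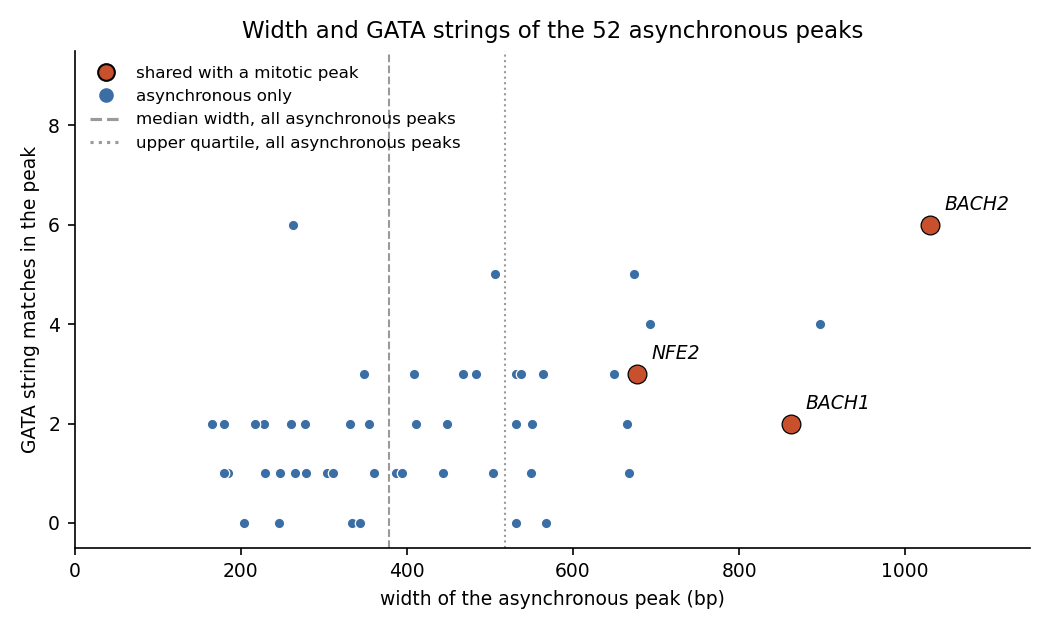
Width of each of the 52 asynchronous peaks (bp, x axis) against its number of GATA string matches (y axis), with the 3 peaks shared with a mitotic peak in red and labelled, and the median and upper quartile width of all asynchronous peaks as dashed and dotted lines. The bookmarked peaks of NFE2, BACH1 and BACH2 lie at 677, 862 and 1030 bp with 3, 2 and 6 matches, and asynchronous-only peaks reach 898 bp and 6 matches.

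The share of peaks with a GATA string was lower than in the whole list, by less than its counting error. At least 1 was present in 46 of 52 peaks (88.5%, 76.6 to 95.6%), beside 93.0% of all asynchronous peaks, and at least 2 in 31 (59.6%, 45.1 to 73.0%), beside 66.4%. The median was 2 strings per peak in both sets. Per kb of peak the windows held 4.66 strings and the whole list 5.995. The 6 peaks without a string were 3 at NFE2 and 1 each at MAFG, MAFK and BACH1. None of these was bookmarked, beside 5.04% of all asynchronous peaks.

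Strings of other factors were also counted on both strands, including those that the family itself binds. The AP-1 core TGAGTCA was in 8 of 52 peaks (15.4%, 6.88 to 28.1%), beside 13.0% of the list, and 4 of the 8 were at BACH2, 2 at NFE2L2, 1 at NFE2 and 1 at BACH1. The NF-E2 site, written as TGCTGA followed by GTCA or CTCA and in both forms containing the AP-1 core on one strand, was in 0 of 52, which leaves an upper bound of 6.85%, beside 1.24% of the list. The antioxidant response core TGACNNNGC was in 4 of 52 (7.69%, 2.14 to 18.5%), beside 16.7%. These are the sequences to which NF-E2, NRF2 and BACH proteins bind with small MAFs, and their absence from a peak says only that these letters are not there.

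The cores of other blood factors were found at shares whose intervals held the share of the list. The RUNX core AACCACA was in 7 of 52 peaks (13.5%, 5.59 to 25.8%), beside 13.6%, and the ETS core AGGAAGT in 5 of 52 (9.62%, 3.20 to 21.0%), beside 14.9%. The GATA and E-box composite was in 6 of 52 (11.5%, 4.35 to 23.4%), beside 8.55%, with 3 of the 6 at BACH2 and 1 each at NFE2, MAFF and BACH1. Its last letters, GATAA, need no A or T before them, so a composite does not always contain a GATA string as defined above. All 3 mitotic peaks held a GATA string, beside 95.6% of all 1648 mitotic peaks. The AP-1, NF-E2, antioxidant, RUNX and ETS strings were in 0 of 3, which leaves an upper bound of 70.8% for each. Their shares of all mitotic peaks ran from 0.485% for the NF-E2 site to 14.2% for the ETS core. These counts therefore do not set the 3 peaks apart from the mitotic list. The composite was in 2 of 3 (66.7%, 9.43 to 99.2%), an interval that includes the 13.1% of all mitotic peaks.

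**Figure D4:**
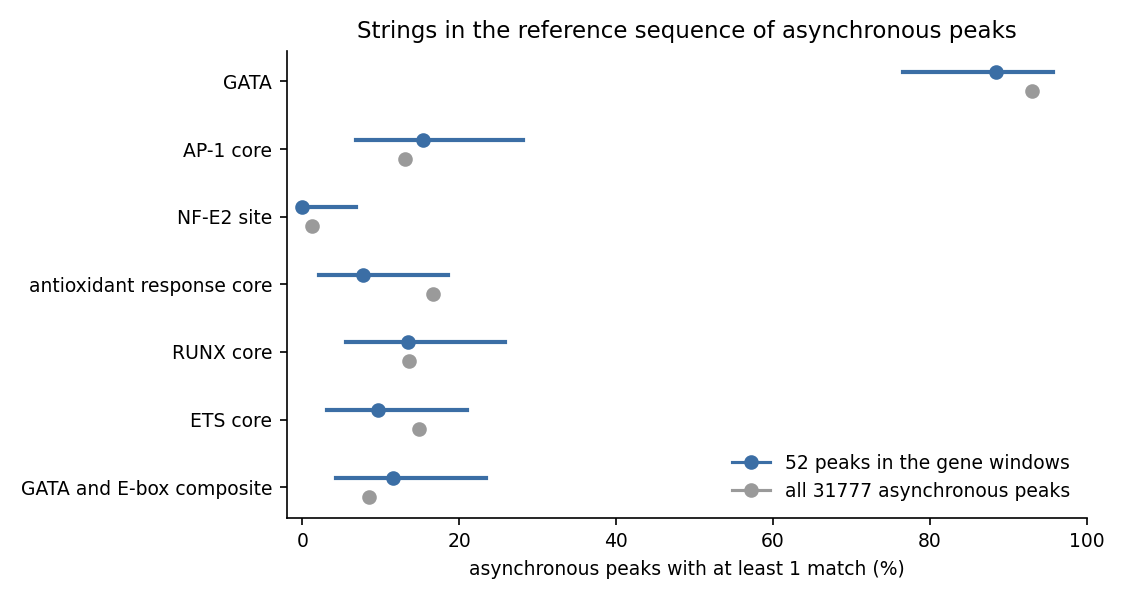
Share of asynchronous peaks with at least 1 match to each string (%, x axis) for the 52 peaks in the gene windows (blue) and for all 31777 asynchronous peaks (grey), with bars for 95% exact binomial intervals. The intervals of the 52 peaks include the share of the whole list for every string drawn, and the GATA strings stand at 88.5% and 93.0%.

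The wider network was described with the same windows. Of 14 genes for partners and regulators of the family, 12 had an asynchronous peak, and RBX1, a subunit of cullin ubiquitin ligases, and BTRC, the substrate receptor of such a ligase, had a mitotic peak. KEAP1 and CUL3, which form the ligase that holds NRF2 low, had 2 and 6 asynchronous peaks and no mitotic peak, and MAF and NGLY1 had no peak. Of 19 known targets 16 had an asynchronous peak and 4 a mitotic peak. Among all coding gene windows 76.0% held an asynchronous peak and 11.7% a mitotic peak, and no difference from these shares was tested. At FTH1, the ferritin heavy chain gene, and SLC48A1, a haem transporter gene, the mitotic peak was nearest to the gene itself, whereas at ME1 and OSGIN1 it was nearest to DOP1A and MLYCD. HMOX1, the classical BACH1 target, had no peak of either kind, and neither had PGD or TALDO1. The bookmarked share was 4.55% (0.555 to 15.5%) for the 44 peaks of the partners and 7.14% (1.98 to 17.3%) for the 56 of the targets. It was 5.77% for the family and 5.04% for all asynchronous peaks.

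The AP-1 family and the GATA factors with their FOG partners are the most similar gene groups, as zipper factors and as genes of the same haematopoietic circuit. The 11 AP-1 genes held 32 asynchronous peaks at a median of 2.75 per 100 kb, and FOSL2, JUN and ATF3 had mitotic peaks in the window, where ATF3 had 2, both nearest to GARIN4. The 8 GATA factor and FOG genes held 87 at a median of 3.18. GATA1, GATA2, ZFPM1 and ZFPM2 had mitotic peaks, that of GATA1 being nearest to HDAC6. ZFPM2 held 5 of their 11 mitotic peaks in a window of 1313.81 kb, and long windows have more room for peaks. Among all coding gene windows 11.7% held a mitotic peak. The bookmarked share was 9.38% (1.98 to 25.02%) for the AP-1 genes and 12.6% (6.48 to 21.5%) for the GATA factor and FOG genes. Only the second interval lay above the 5.04% of all asynchronous peaks. That interval treats peaks as independent, whereas ZFPM1 and ZFPM2 alone held 4 and 5 of the 11 bookmarked peaks of the GATA factor and FOG genes. The median over the 8 genes described here was 1.80 per 100 kb, so both groups had denser windows at the median, while NFE2 alone exceeded every gene of both groups. None of these differences was tested.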

How the data were processed

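GATA2 was profiled by ChIP-seq with single-end 75 nt reads in asynchronous and mitotic K562. The authors aligned reads to hg38 with BWA 0.7.12, kept unique reads of mapping quality 25 or more, extended them to 200 bp, called peaks with MACS 2.1.0 and Genrich 0.6.1, and removed blacklisted regions. How both callers were combined, their thresholds and the use of inputs are not given in the sources used here. The deposited values are genomic positions of peaks in 3 columns, without score, height or depth.

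Windows were the gene bodies of GENCODE 44 extended by 50 kb. Peaks were intersected with windows, assigned to the nearest coding TSS and searched for strings with Python 3.11.15 and pysam 0.24.0. Intervals are exact binomial at 95% (scipy 1.17.1). Steps were tested on simulated data. With 1 library per condition, no test was run. The members and lists were chosen with earlier results of these data known. Named genes are the 8 members, list genes with a mitotic peak in the window, and the nearest genes to mitotic or promoter peaks. KEAP1, CUL3, MAF, NGLY1, HMOX1, PGD, TALDO1 and further neighbours were named after their values were seen. Alternatives changed the window, overlap, TSS and string rules.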

Additional observations from a re-analysis of the deposited data

How the results depend on the processing

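Of 44 alternatives 35 stayed within 1.5 times the count or within the interval, and 9 moved. The 52 asynchronous peaks became 30 with gene bodies alone, 34 where the nearest coding TSS had to be the gene's own, and 28 at or above the median width of the list. The 8 genes with an asynchronous peak became 5 both with gene bodies alone and with the nearest TSS rule. The 3 bookmarked peaks became 1, that of NFE2, where the overlap had to reach 50% of both peaks. The share with a GATA string fell from 88.5% to 61.5% with AGATAA alone. The whole list was not counted for AGATAA alone, so 61.5% has no background here. Peaks at promoters changed from 5 to 9 within 3 kb and to 1 with the canonical TSS only. Windows on canonical transcripts, an alternative chosen after seeing the data, held 42 asynchronous and 2 mitotic peaks, without that of BACH1. Leaving BACH1 out left 43 and 2. No paired analysis was possible because each condition has 1 library and the results come from no test. The unknown depth of the libraries limits every statement on missing peaks.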
